A study of Sus scrofa with 50 samples.

Results

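RNA levels of 10 macrophage marker genes were followed across 5 tissues of the Korean minipig (Sus scrofa). The genes were chosen by name, and a transcript counted as a member when its best Swiss-Prot protein match, at an E value of at most 1e-10, was CD68, CD14, CD163, CSF1R, C1QA, C1QB, C1QC, AIF1, TYROBP or LYVE1. All 10 were found, on 23 transcripts, among 14413 protein entries built from 32155 assembled transcripts. These came from 20 assemblies named by tissue and type, among them spleen, lung, liver and kidney, which are not among the 5 tissues. The study compared minipigs of the ET type (animals S0235, S0242, S0276, S0309 and S0326) with minipigs of the L type (S0349, S0355, S0377, S0384 and S0385). Each of the 10 animals gave backfat, loin, tenderloin, lymph and brain, which makes 50 libraries and 5 animals per type and tissue. The labels give neither the age nor the sex of the animals, do not spell out ET and L, and record no treatment. Values are TPM, a transcript abundance corrected for transcript length and library size. Each library sums to the same total, so a level is a share of its library. Comparisons between tissues therefore depend on what else each tissue expresses and on the scaling.

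Macrophages are the resident phagocytes of most tissues and take up dying cells, lipoproteins, iron and microbes. In fat they lie between and around adipocytes, in lymph tissue they line the sinuses and clear dead lymphocytes, in muscle they lie in the connective tissue, and in brain tissue most belong to the microglia. The brain libraries used here held pituitary RNA, as given below, so their values are not those of brain microglia. C1QA, C1QB and C1QC encode the chains of C1q, which binds immune complexes and cell debris and starts the classical complement pathway. CSF1R is the receptor for the macrophage growth factors CSF1 and IL-34. CD163 takes up haemoglobin bound to haptoglobin, CD14 is a co-receptor for bacterial lipopolysaccharide, and LYVE1 is a hyaluronan receptor of a subset of tissue macrophages and of lymphatic endothelium. CD68 is a glycoprotein of the lysosome membrane, AIF1 (also called IBA1) is a calcium-binding protein of the actin cortex, and TYROBP (DAP12) is the signalling adaptor of receptors such as TREM2. In bulk tissue RNA, more macrophages and more of these transcripts per macrophage cannot be told apart.

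The results rest on 45 of the 50 libraries. Libraries from S0355 backfat, loin and brain and from S0235 lymph and brain carry the marker genes of another tissue than their label, and were left out by the rule that chose the members. In the others, ADIPOQ, the fat cell hormone adiponectin, stood at 182 to 6980 TPM in backfat. CKM, the muscle creatine kinase, stood at 17145 to 31866 TPM in loin and 17458 to 34871 TPM in tenderloin. CD3E, part of the T cell receptor, stood at 406 to 750 TPM in lymph. The 8 brain libraries carried POMC, the pituitary hormone precursor, at 5271 to 77973 TPM, while the myelin protein MBP stood at 16.0 to 80.1 TPM. They thus hold pituitary RNA, and myelin-rich brain tissue is not represented among them. Below, brain means these 8 pituitary-like libraries unless stated otherwise. The number of entries at 1 TPM or more per library ranged from 10170 to 13172, and read depth is unknown.

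The genes of the C1q chains are neighbours in the pig genome (build Sscrofa11.1, RefSeq annotation). They lie on chromosome 6 in the order C1QA (80586259 to 80589213), C1QC (80592591 to 80597464) and C1QB (80601680 to 80606076), with 0 other annotated genes between them over 19.8 kb. TYROBP is on the same chromosome at 45309199 to 45312562. On chromosome 2 lie LYVE1 (48937357 to 48954206), CD14 (142348036 to 142349686) and CSF1R (151102138 to 151130311). CD163 is on chromosome 5 (63300200 to 63334497), AIF1 on chromosome 7 (23711752 to 23731191) and CD68 on chromosome 12 (52874754 to 52877256).

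How well the assembly covers each protein differed. CD14, C1QB and LYVE1 each rest on 1 transcript that matches 357, 253 and 322 residues of the protein. A transcript matching 247 residues carried 98.3% of the C1QA signal, and a transcript matching 245 residues carried 97.4% of the C1QC signal. CSF1R had 3 transcripts, of which the one matching 958 residues carried 90.7%, and CD163 had 2, of which the one matching 1115 residues carried 81.9%. The other members are less complete: the TYROBP signal was divided between transcripts matching 50 and 45 residues (59.5% and 40.5%), and AIF1 mainly between transcripts matching 129 and 51 residues (53.9% and 44.5%). For CD68, a transcript matching 201 residues carried 68.7% over all libraries, and another matching 319 residues carried 8.42%. In loin and brain a transcript matching 63 residues was the larger part. Its means were 1.80 TPM in loin and 5.06 TPM in brain, against 1.35 and 4.58 TPM for the match of 201 residues. Low CD68 levels in muscle and the CD68 levels in brain therefore rest partly on a short match. A further transcript with a CD163 match just above the E value limit, with 44 residues matched and a mean of 4.43 TPM, was left out, while the weakest match kept for that protein had 59 residues and a mean of 3.24 TPM.

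C1q dominated the marker signal. Over all tissues together the chains stood between 3.06 TPM (C1QA in an L loin) and 1400 TPM (C1QC in an L lymph library). C1QC had its lowest, median and highest lymph values at 472, 649 and 1400 TPM (n = 9), and its backfat values at 74.1, 168 and 416 TPM (n = 9). In brain C1QC stood at 52.9, 86.7 and 248 TPM (n = 8), in tenderloin at 8.77, 26.2 and 55.1 TPM (n = 10) and in loin at 5.15, 8.17 and 25.1 TPM (n = 9). The lymph libraries thus lay above every library of the other tissues for C1QC, and brain overlapped with backfat. C1QB followed the same order, with median levels of 418 TPM in lymph, 207 in backfat, 85.2 in brain, 26.6 in tenderloin and 9.23 in loin. For C1QA the medians were 288, 125, 43.0, 15.2 and 10.1 TPM in that order. By mean TPM, C1QC stood above 99.1% of all entries in lymph and above 68.3% of them in loin.

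CSF1R was near its highest level in both lymph and backfat. Its lowest, median and highest values were 28.7, 53.7 and 129 TPM in lymph, 13.1, 50.9 and 102 TPM in backfat and 8.07, 14.9 and 54.5 TPM in brain. Tenderloin had 4.10, 7.72 and 14.4 TPM, and loin 2.38, 4.55 and 9.86 TPM. Lymph and backfat covered nearly the same range, and brain overlapped with both. CD163 and CD14 had another order, with backfat first. CD163 stood at 15.4, 39.7 and 137 TPM in backfat, at 7.38, 18.3 and 32.7 TPM in lymph and at 4.94, 8.20 and 25.3 TPM in brain. In tenderloin it had a median of 6.50 TPM and in loin of 3.92 TPM. CD14 stood at 12.3, 23.3 and 40.8 TPM in backfat and at 7.24, 11.7 and 25.8 TPM in lymph, with medians of 5.24 TPM in brain, 2.72 in tenderloin and 1.89 in loin.

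LYVE1 spread over the widest range of tissue means, which differed 135-fold between backfat and brain. Its lowest, median and highest values were 5.83, 50.6 and 120 TPM in backfat and 14.5, 19.7 and 84.6 TPM in lymph. In brain LYVE1 stayed between 0.175 and 0.736 TPM in all 8 libraries, below every library of the other tissues except 1 loin library of an ET animal (0.701 TPM). In loin it had a median of 1.99 TPM and in tenderloin of 2.81 TPM.

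Of the remaining markers, AIF1 had a median of 84.1 TPM in lymph (54.8 to 106), 20.8 in backfat (8.41 to 59.2), 6.99 in brain (3.76 to 23.2), 2.32 in tenderloin and 1.06 in loin. TYROBP had medians of 29.7 TPM in lymph (25.3 to 53.8), 11.8 in backfat (6.40 to 42.5), 3.11 in brain (1.87 to 11.5), 1.13 in tenderloin and 0.561 in loin. CD68 had medians of 34.3 TPM in lymph (23.0 to 77.7), 16.8 in backfat (3.68 to 54.4), 10 in brain (6.06 to 14.0), 3.27 in tenderloin (2.24 to 6.45) and 3.13 in loin (2.51 to 3.86). For CD68 the loin range lay within the tenderloin range, and the ratio of the highest to the lowest tissue mean was 12.1, against 65.2 for AIF1.

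**Figure D1:**
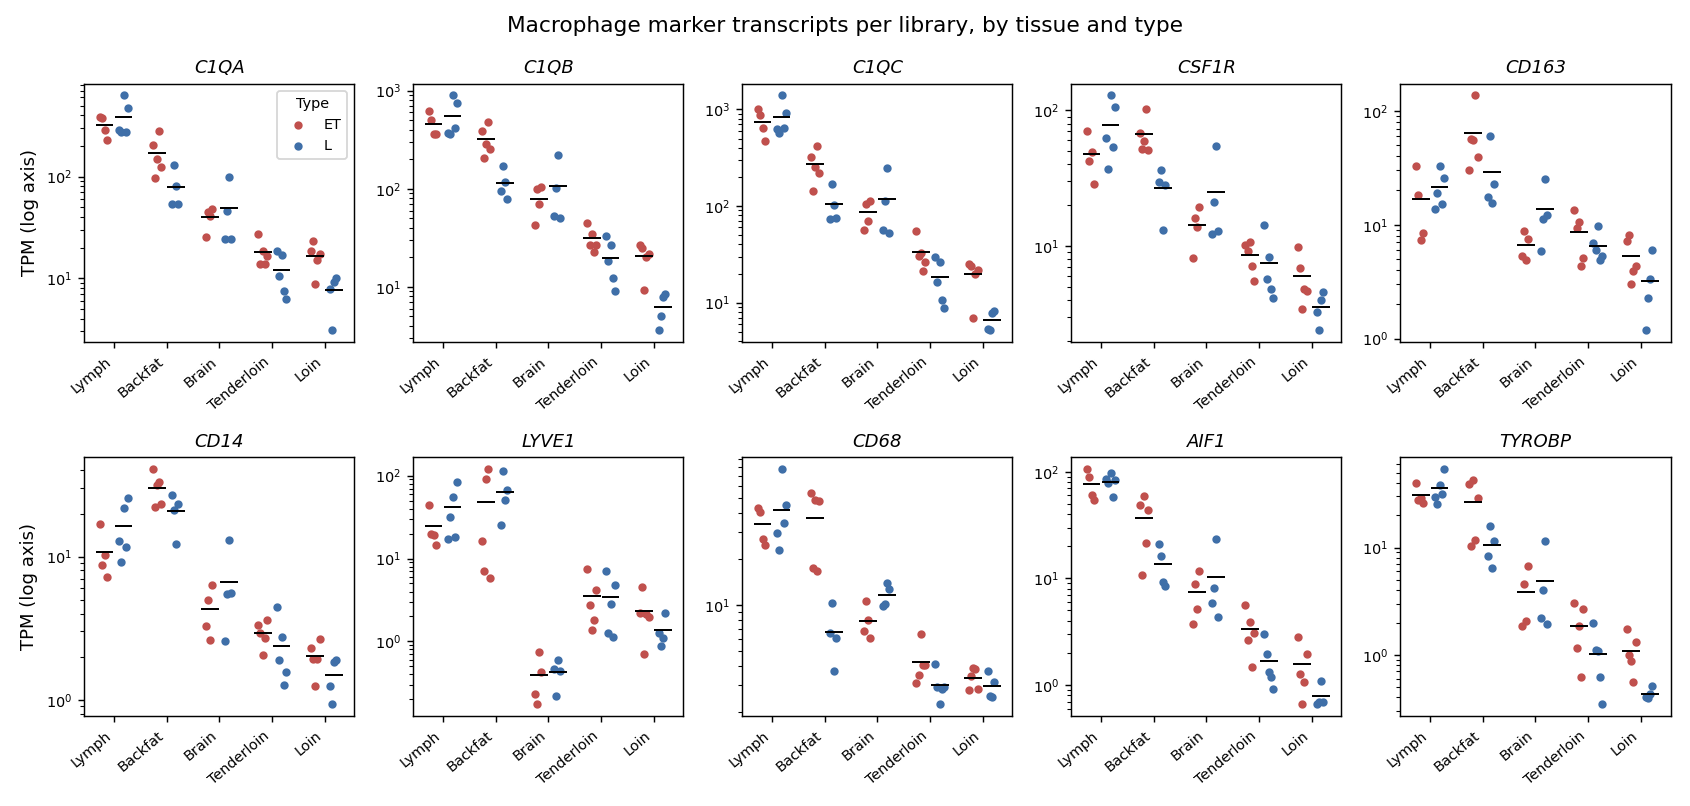
TPM of each macrophage marker (log axes) in every library kept, by tissue, with ET libraries (red) left of L libraries (blue) and horizontal lines at the group means. Lymph and backfat hold the highest levels of all 10 genes, and LYVE1 stays under 1 TPM in the brain libraries, which hold pituitary RNA.

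Tissue differences were tested with limma on log2(TPM + 1) across the 45 libraries, with p-values adjusted by Benjamini-Hochberg over all entries, and an adjusted p under 0.05 counted as a call. The same animals gave all tissues. All 10 members were higher in lymph than in brain, against 21.2% of all entries, all 10 higher in lymph than in loin, against 59.5%, and all 10 higher in lymph than in tenderloin, against 61.8%. Against loin the members' log2 differences ran from 1.90 (CD163) to 5.98 (C1QC, SE 0.28, adjusted p = 1.28e-22), with a median of 3.85 where the median of all entries was 0.72. Against brain the median was 2.70, where that of all entries was -0.50, and LYVE1 differed most, by 4.36 (SE 0.42, adjusted p = 3.18e-12). The median against tenderloin was 3.44, beside 0.77 for all entries. With size factors from median ratios, which moved the median of all entries by 0.49 against brain, -0.68 against loin and -0.73 against tenderloin, all 10 members were still higher in lymph in each contrast, and CD163 against tenderloin (0.26, adjusted p = 0.383) no longer passed. CD163 against brain did not pass without S0242 (0.62, adjusted p = 0.0885).

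Backfat gave the same count. All 10 members were higher in backfat than in brain (15.9% of all entries were), than in loin (55.2%) and than in tenderloin (57.9%). Against brain the log2 differences ran from 0.59 (CD68, SE 0.21, adjusted p = 0.0123) to 4.77 (LYVE1, SE 0.42, adjusted p = 2.93e-13), with a median of 1.37 beside -0.75 for all entries. Against loin the median was 3.24 beside 0.52 for all entries, with C1QB at 3.96 (SE 0.27), and against tenderloin it was 2.78 beside 0.57. The scaling moved the median of all entries by 0.69, -0.48 and -0.52 in these contrasts and ended none of the members' calls. CD68 against brain did not pass without S0326 or S0377 (0.48 and 0.46).

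Between lymph and backfat the markers moved in both directions. Higher in lymph were 6 of 10 members, where 44.3% of all entries were higher, and lower in lymph were 2, where 28.1% of all entries were lower. The 6 were C1QC by 2.23 (SE 0.28, adjusted p = 2.55e-09), AIF1 by 1.88 (SE 0.27), C1QA by 1.62 (SE 0.26), C1QB by 1.38 (SE 0.27), CD68 by 1.22 (SE 0.21) and TYROBP by 1.04 (SE 0.26) on the log2 scale. CD163 fell by 1.09 (SE 0.30, adjusted p = 0.0013) and CD14 fell by 0.91 (SE 0.22, adjusted p = 0.000307) in lymph relative to backfat. CSF1R and LYVE1 did not pass, with differences of 0.47 (95% confidence interval -0.06 to 1.0) and -0.41 (-1.25 to 0.42). The median difference of the members was 1.13, and that of all entries 0.22.

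Other macrophage genes came from lists chosen with earlier results of these data known, and their counts stand beside the 44.3% of all entries that were higher and the 28.1% that were lower in lymph. Of 12 scavenger receptors and lectins tested, 4 were higher and 5 lower in lymph, so that the share of higher genes was below that of all entries. MARCO, a receptor of marginal and sinus macrophages, was higher by 5.12 (SE 0.30) and TIMD4, a receptor for phosphatidylserine on dying cells, by 4.10 (SE 0.25), while the fatty acid receptor CD36 fell by 5.22 (SE 0.26), a gene that fat and endothelial cells also express. SIGLEC1, the sialic acid lectin of sinus macrophages, was higher by 3.02 (SE 0.19). Names went by order of p, and the other lower genes of this list are not named. The summed list, CD36 included, was lower in lymph, with medians of 323 TPM in ET and 406 TPM in L animals. In backfat its medians were 2053 TPM in ET and 947 TPM in L animals. Of 9 Fc and complement receptors, 6 were higher and 1 was lower: the complement receptor VSIG4 fell by 2.41 (SE 0.28), while ITGB2, the shared chain of leukocyte integrins, was higher by 4.45 (SE 0.22). Of 9 partners of TYROBP signalling, 7 were higher and 1 lower, with the kinase SYK at 4.36 (SE 0.22) and the phosphatase INPP5D at 3.97 (SE 0.19). B and T cells use several of these as well, and the summed T cell list was 2952 to 3927 TPM in ET lymph and 1765 to 3431 TPM in L lymph. In backfat it was 64.7 to 222 TPM in ET animals and 10.2 to 53.4 TPM in L animals, most of it from the single gene CD247. CD3E of the same list stood at up to 3.23 TPM in backfat, against 406 to 750 TPM in lymph. The part of lymphocytes in these differences was not tested.

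Higher in brain than in loin were 9 of 10 members, where 74% of all entries were higher, and LYVE1 was lower, where 12.2% of all entries were. The members' median of 1.58 stood beside a median of 1.29 for all entries. Relative to tenderloin, 8 members were higher in brain, where 76% of all entries were, and LYVE1 was lower, by 1.5 (SE 0.41, adjusted p = 0.000954), where 11.8% of all entries were lower. CD163 did not pass (0.29, 95% confidence interval -0.32 to 0.89). These counts turn on the scaling. Median-ratio size factors moved the median difference of all entries by -1.20 for brain against loin and by -1.27 for brain against tenderloin, and 4 and 2 members then passed, while the differences of CD163 against loin (-0.17) and of CD163, CD14 (-0.40), CSF1R (-0.29) and CD68 (-0.06) against tenderloin turned negative. On that scale C1QC (1.52), C1QB (1.39) and AIF1 (1.0) were higher in brain than in loin and LYVE1 was lower (-1.52), while CD163 was lower in brain than in tenderloin (-1.03, adjusted p = 0.0013) along with LYVE1 (-2.18). LYVE1 was lower in brain than in either muscle on both scales. Its call against loin was lost with the animal as a replicate block (-0.91, adjusted p = 0.0511) and without S0242, S0349, S0377, S0384 or S0385 (adjusted p of 0.0521 to 0.0850).

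Loin and tenderloin, which are both skeletal muscles of the back, differed in 2 members. C1QB was lower in loin than in tenderloin by 1.03 (SE 0.26, adjusted p = 0.00278) and C1QC by 1.0 (SE 0.27, adjusted p = 0.00495), where 8.69% of all entries were lower in loin. All 10 members had negative differences, with a median of -0.61 where that of all entries was 0. With the animal as a replicate block 5 members passed, as they did after median-ratio scaling.

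The make-up of the marker signal differed between tissues. C1q took 85.5% ± 1.48 (SD, n = 9) of the summed TPM of the 10 markers in lymph, 79.8% ± 3.63 (n = 8) in brain, 68.1% ± 5.43 (n = 10) in tenderloin, 67.7% ± 6.73 (n = 9) in backfat and 66.2% ± 7.42 (n = 9) in loin. The lymph shares (83.3% to 87.7%) lay above those of all other tissues' libraries, the highest of which was 82.9% in brain. The balance of the C1q chains also shifted: C1QC stood at 1.22 to 1.80 times the TPM of C1QB in lymph and at 0.696 to 0.986 times in backfat, with no overlap, and at 0.993 to 1.31 times in brain. In tenderloin it stood at 0.879 to 1.22 times and in loin at 0.759 to 1.46 times, so that lymph overlapped with brain and loin. C1QA stood at 0.624 to 0.796 times C1QB in lymph and 0.469 to 0.759 times in backfat, which overlap. CD163 stood at 0.15 to 0.517 times CSF1R in lymph, against 0.449 to 1.65 times in backfat. These ratios were picked after their values had been seen and were not tested.

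**Figure D2:**
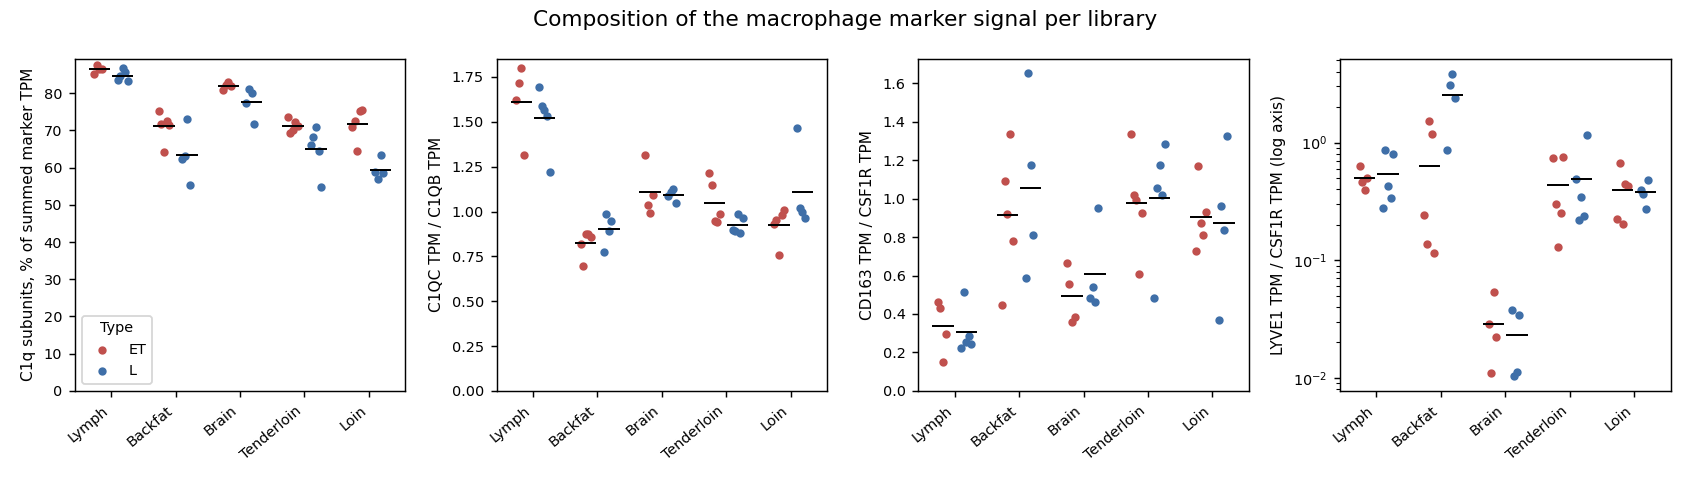
Share of the C1q chains in the summed TPM of the 10 markers (percent) and 3 ratios of TPM between members, per library and tissue, with ET (red) left of L (blue) and lines at the group means. The last axis is logarithmic. By group means, lymph stands highest for the C1q share and for C1QC over C1QB, and brain lowest for LYVE1 over CSF1R. For C1QC over C1QB, brain and loin reach into the lymph range. The brain libraries hold pituitary RNA.

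Across the 45 libraries the C1q chains went together most closely, with Pearson r of 0.982 to 0.991 between their log2(TPM + 1) values. After the mean of each type and tissue group was taken off, r was still 0.922 to 0.967. CD68 and LYVE1 were the least alike (0.57 over libraries and 0.102 after removal of the group means). AIF1 and TYROBP had 0.979 and 0.855. CSF1R went with C1QB at 0.838 and with CD14 at 0.815 after removal of the group means, and CD68 with TYROBP at 0.544 and with C1QB at 0.276. These values describe libraries that share animals and tissues and carry no test.

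The entries most like each member over the 45 libraries were sought among 10684 others with a mean of at least 5 TPM. FCER1G, the signalling chain of Fc receptors, was most like TYROBP (r = 0.978) and C1QB (0.969). IFI30, a thiol reductase of lysosomes, was most like AIF1 (0.980) and C1QA (0.974). The inhibitory Fc receptor FCGR2B was most like CD163 (0.891), and CARD9, an adaptor of fungal sensing, was most like CSF1R (0.957). SH3BP2, an adaptor protein, was most like CD14 (0.951), and the small GTPase GIMAP1 most like C1QC (0.970). The 3 entries most like LYVE1 were the lectin CD209 (0.957), the coagulation factor chain F13A1 (0.924) and CD5L (0.919), the protein also called AIM. CD209 in brain was also near 0, at up to 0.877 TPM in ET and up to 0.488 TPM in L animals.

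In backfat, 4 of 10 members rose in ET relative to L animals, where 7.53% of all entries were higher in ET. They were CD68, C1QB, C1QC and CSF1R, and no member was lower. CD68 changed most: it stood at 54.4, 17.4, 48.7, 16.8 and 47.8 TPM in ET animals and at 6.55, 10.3, 3.68 and 6.12 TPM in L animals. Every ET value lay above every L value. The means were 37.0 ± 18.3 TPM (SD, n = 5) in ET and 6.66 ± 2.73 TPM (n = 4) in L backfat, a log2 difference of 2.21 (SE 0.42, adjusted p = 0.0132, limma). Part of this signal came from a transcript matching 319 residues, at 15.8, 14.7 and 18.3 TPM in S0235, S0276 and S0326. It stood at 0.748 TPM in S0242, 0.709 TPM in S0309 and 0.399 to 0.985 TPM in L animals. The transcript matching 201 residues alone had 13.2 to 35.4 TPM in ET and 3.12 to 9.01 TPM in L animals.

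C1QB had 388, 207, 289, 477 and 256 TPM in ET backfat and 95.6, 170, 116 and 79.3 TPM in L backfat, again without overlap, and a log2 difference of 1.47 (SE 0.30, adjusted p = 0.0167). C1QC had 318, 144, 254, 416 and 220 TPM in ET and 74.1, 168, 104 and 75.2 TPM in L animals, a difference of 1.35 (SE 0.34, adjusted p = 0.0342), with 1 ET animal (S0242) below the highest L animal (S0377). CSF1R had 67.7, 51.6, 59.6, 102 and 50.9 TPM in ET and 29.7, 36.5, 13.1 and 28.3 TPM in L animals, a difference of 1.31 (SE 0.32, adjusted p = 0.0299), and the groups did not overlap. CSF1R, C1QC and C1QB thus had ET means 2.47, 2.57 and 2.80 times those of L animals, and CD68 5.56 times. How many of all backfat entries had no overlap between the types was not counted.

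The calls of C1QC and CSF1R depended on single animals. Without L animal S0349 the call of C1QC was lost. Without ET animal S0235, S0309 or S0326, or without L animal S0385, 2 members passed, CD68 and C1QB. Without L animal S0384, CD68 alone passed, and C1QB had an adjusted p of 0.0508. Without ET animal S0242, 5 passed, AIF1 included. Median-ratio scaling, which moved the median of all entries by -0.28, left CD68 (1.93) and C1QB (1.16).

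Of the members that did not pass in backfat, 5 had positive differences: AIF1 (1.22), CD163 (1.12), TYROBP (1.12), C1QA (1.09) and CD14 (0.52). LYVE1 alone was negative, at -1.18 with a 95% confidence interval of -3.03 to 0.68. It had 16.2, 7.14, 90.5, 120 and 5.83 TPM in ET and 25.7, 113, 50.6 and 68.0 TPM in L animals, so that 3 ET animals lay below all L animals and 2 lay within or above their range. The median difference of the members was 1.17, and that of all entries 0.29.

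The ET backfat libraries did not all carry the same markers. CD68, TYROBP and AIF1 were highest in S0235, S0276 and S0326, with TYROBP at 39.3, 42.5 and 29.2 TPM there and at 10.3 TPM in S0242 and 11.8 TPM in S0309. S0309 had instead the highest C1QB, CSF1R, CD163 (137 TPM) and LYVE1 (120 TPM) of all backfat libraries. CD163 had 30.4, 56.2, 54.9, 137 and 39.7 TPM in ET and 17.4, 60.4, 15.4 and 22.9 TPM in L animals, with S0377 the high L animal. The LYVE1 level was 0.115 to 1.52 times that of CSF1R in ET and 0.864 to 3.86 times in L backfat.

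**Figure D3:**
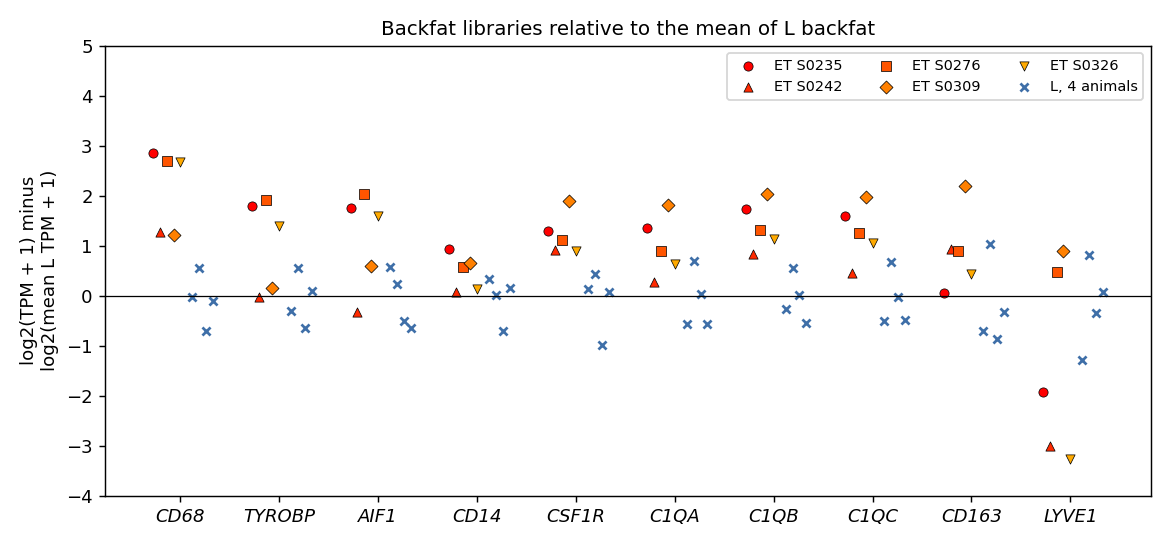
Backfat level of each marker in each of the 5 ET animals (filled symbols, one shape per animal) and the 4 L animals (crosses), as log2(TPM + 1) minus log2 of the mean L TPM + 1. CD68 is above all L animals in all 5 ET animals, while LYVE1 lies below them in 3 ET animals and at the level of the L animals or above in 2.

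Other phagocyte genes in backfat gave calls in 1 direction, which was also that of most calls over all entries. Of all entries, 7.53% were higher and 1.04% lower in ET. Of 9 Fc and complement receptors tested 3 rose in ET, namely ITGB2 (2.40, SE 0.41), its partner chain ITGAX (2.31, SE 0.49) and the anaphylatoxin receptor C3AR1 (2.27, SE 0.49). Of 18 oxidase and lysosome genes 5 rose, among them the acid lipase LIPA (2.38, SE 0.31), the oxidase subunit CYBB (2.14, SE 0.45) and the cathepsins CTSD (2.09, SE 0.50) and CTSB (1.14, SE 0.30). LIPA averaged 315 ± 109 TPM (SD, n = 5) in ET and 58.8 ± 18.6 TPM (n = 4) in L backfat. Of 11 scavenger receptors and lectins 3 rose: the folate receptor FOLR2 (1.4, SE 0.21), CD36 (2.02, SE 0.49) and MSR1 (2.58, SE 0.66). Of 14 growth and lineage factors the transcription factor CEBPA (2.94, SE 0.56), which fat cells also use, and the receptor chain CSF2RA (1.68, SE 0.40) rose. None of 9 TYROBP partners and kinases and none of 10 other complement genes passed, and of 7 chemokine, cytokine and toll receptor genes the fractalkine receptor CX3CR1 did (1.37, SE 0.32). The median differences of the receptor, lysosome and scavenger lists were 1.58, 1.02 and 0.83, beside 0.29 for all entries.

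Markers of other cells moved with type in backfat as well, beside the same 7.53% of all entries that were higher and 1.04% that were lower. Of 7 neutrophil and monocyte genes 5 rose, and the summed list was 184 to 673 TPM in ET and 35.0 to 189 TPM in L animals, led by S100A12 at 116 to 573 TPM in ET and 3.50 to 18.5 TPM in L animals. Of 6 adipocyte genes 5 rose, with sums of 8457 to 19078 TPM in ET and 493 to 7509 TPM in L animals, and 4 of 6 fibroblast genes did. Of 3 red cell genes tested 2 rose (sums of 96.0 to 648 TPM in ET and 2.92 to 67.7 TPM in L animals). Of 4 T cell genes 3 rose, led by CD247 at 49.4 to 214 TPM in ET and 9.33 to 52.2 TPM in L animals, while CD3E stood at 0.770 to 3.23 TPM in ET and at up to 0.607 TPM in L animals. Of 5 lymphatic endothelium genes none passed, and their sums overlapped (19.6 to 125 TPM in ET and 34.5 to 157 TPM in L animals). Of 4 B cell genes 2 rose and 1 fell, of 4 dendritic cell genes 1 rose, of 5 microglia genes 3 rose and of 4 myelin genes 1 rose, while none of 9 blood vessel, 7 muscle and 1 pituitary gene passed. The part of these cells and of the fat content of the samples in the marker differences was not tested.

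In loin, 3 of 9 members tested rose in ET relative to L animals, where 6.17% of all entries were higher in ET and 25.2% lower, and the 3 were the C1q chains. C1QB had 27.0, 25.0, 9.23, 20.4 and 21.7 TPM in ET and 3.61, 5.05, 7.87 and 8.47 TPM in L animals. No ET value reached down to an L value, and the log2 difference was 1.56 (SE 0.31, adjusted p = 0.00516). C1QC had 25.1, 23.8, 7.0, 19.9 and 21.8 TPM in ET and 5.28, 5.15, 7.84 and 8.17 TPM in L animals (1.34, SE 0.32, adjusted p = 0.0114). For C1QA the values were 18.7, 23.2, 8.69, 15.0 and 17.1 TPM in ET and 7.87, 3.06, 9.23 and 10.1 TPM in L animals (1.07, SE 0.32, adjusted p = 0.0277). In both of these S0276 was the ET animal that lay among the L animals.

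The call of C1QA was lost without S0235, S0242, S0326 or S0377 (adjusted p of 0.0516 to 0.0724). The other loin members tested had positive differences that did not pass, of 0.13 (CD68) to 0.64 (CD163), and CSF1R stood at 0.57 (95% confidence interval 0.00 to 1.13). CSF1R passed after median-ratio scaling (0.74, adjusted p = 0.0416), which moved the median of all entries by 0.19. CD68 passed when its short match was not counted (0.47, adjusted p = 0.0303). TYROBP averaged under the limit of 1 TPM and was not tested. It had 1.73, 0.994, 0.869, 0.561 and 1.31 TPM in ET and 0.406, 0.393, 0.432 and 0.508 TPM in L animals. These low values rest on matches of 50 and 45 residues. How many of all loin entries had no overlap between the types was not counted. The members' median difference was 0.57, and that of all entries -0.23.

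Several receptors and uptake genes of macrophages rose with C1q in loin, where 6.17% of all entries were higher in ET. Of 5 Fc and complement receptors tested 4 did: FCGR2B (1.18, SE 0.24), FCER1G (1.11, SE 0.25), FCGR3A (0.87, SE 0.26) and VSIG4 (0.72, SE 0.22). FCGR2B averaged 3.51 ± 1.52 TPM (SD, n = 5) in ET and 0.955 ± 0.412 TPM (n = 4) in L loin. Of 7 scavenger receptors the scavenger receptor STAB1 (0.84, SE 0.21) and the mannose receptor MRC1 (0.72, SE 0.21) rose. Of 12 oxidase and lysosome genes 2 rose, led by the cathepsin CTSS (0.97, SE 0.22), while 3 fell, CTSD, LAMP1 and LAMP2, a share near the 25.2% of all entries that were lower in ET loin. CTSD fell by 1.33 (SE 0.21), which is the opposite direction to its difference in backfat. Of 8 growth and lineage factors CSF1, the ligand of CSF1R, rose (0.66, SE 0.19), and the transcription factors RUNX1 (-1.18, SE 0.26) and CEBPB (-0.95, SE 0.26) fell, again a share near that of all entries. Of 10 other complement genes CFD (1.46, SE 0.29) and C1R (0.80, SE 0.26) rose, of which C1R encodes a protease that binds C1q, and of 4 chemokine and toll receptor genes the monocyte attractant CCL2 rose (1.5, SE 0.33).

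The counts for markers of other cells in loin stand beside the 6.17% of all entries that were higher and the 25.2% that were lower in ET. All 6 fibroblast genes rose in ET loin, led by the collagen COL3A1 at 19.2 to 149 TPM in ET and 4.27 to 21.7 TPM in L animals. Both red cell genes tested rose, and the summed red cell list was 28.8 to 92.8 TPM in ET and 3.10 to 12.8 TPM in L animals. The lymphatic endothelium sums were 5.45 to 23.0 TPM in ET and 5.36 to 9.88 TPM in L animals, and the neutrophil and monocyte sums stayed at 1.88 to 8.28 TPM in ET and 1.05 to 3.24 TPM in L animals. Of 1 neutrophil and monocyte gene tested 1 rose and of 2 microglia genes 1 rose, of 3 adipocyte genes 1 fell, of 7 muscle genes 1 rose and 1 fell, and the 1 pituitary gene fell. None of 4 lymphatic and 9 blood vessel genes, of 3 TYROBP partners, of 3 myelin genes and of the single T cell, B cell and dendritic cell genes tested passed. The part of these cells in the C1q difference was not tested.

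In tenderloin none of 10 members passed in limma, where 1.4% of all entries were higher in ET, although all 10 differences were positive. The median was 0.42 beside 0.05 for all entries. AIF1, C1QB and C1QC had an unadjusted p under 0.05, as had 2208 entries in all. C1QC was largest at 0.90 (SE 0.34, 95% confidence interval 0.16 to 1.63, adjusted p = 0.172), with 55.1, 30.7, 33.0, 21.3 and 26.2 TPM in ET and 29.7, 16.2, 26.1, 10.7 and 8.77 TPM in L animals. The 2 lowest ET values lay within the L range and the other 3 above it. Of the lists, the fibroblast genes gave the calls in this tissue (4 of 6, led by DCN at 1.46, SE 0.16).

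In lymph none of 10 members passed in limma, where 0% of all entries were higher and 0% lower in ET, and none had an unadjusted p under 0.05, against 525 entries in all. All 10 differences were negative, from -0.08 (AIF1) to -0.62 (CSF1R, 95% confidence interval -1.36 to 0.13). CSF1R had 70.2, 42.5, 49.3 and 28.7 TPM in ET and 62.5, 36.7, 129, 53.7 and 106 TPM in L animals, and L animals S0377 and S0385 lay above all ET animals. In brain none of 9 members tested passed, where again 0% of all entries were higher and 0% lower in ET. CD68 alone had an unadjusted p under 0.05, against 1079 entries in all. It had 6.71, 10.6, 7.94 and 6.06 TPM in ET and 9.80, 10.2, 14.0 and 12.7 TPM in L animals (-0.53, 95% confidence interval -1.03 to -0.04, adjusted p = 0.593). Of this, the short match of 63 residues gave 2.56 to 5.80 TPM in ET and 5.20 to 7.83 TPM in L animals. The match of 201 residues gave 3.24 to 4.73 TPM in ET and 3.77 to 8.44 TPM in L animals. LYVE1 was too low to test. L animal S0384 had the highest brain value of 9 members, all but LYVE1, among them CSF1R (54.5 TPM, against 8.07 to 20.9 TPM in the other brain libraries) and C1QB (220 TPM, against 43.1 to 104 TPM).

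**Figure D4:**
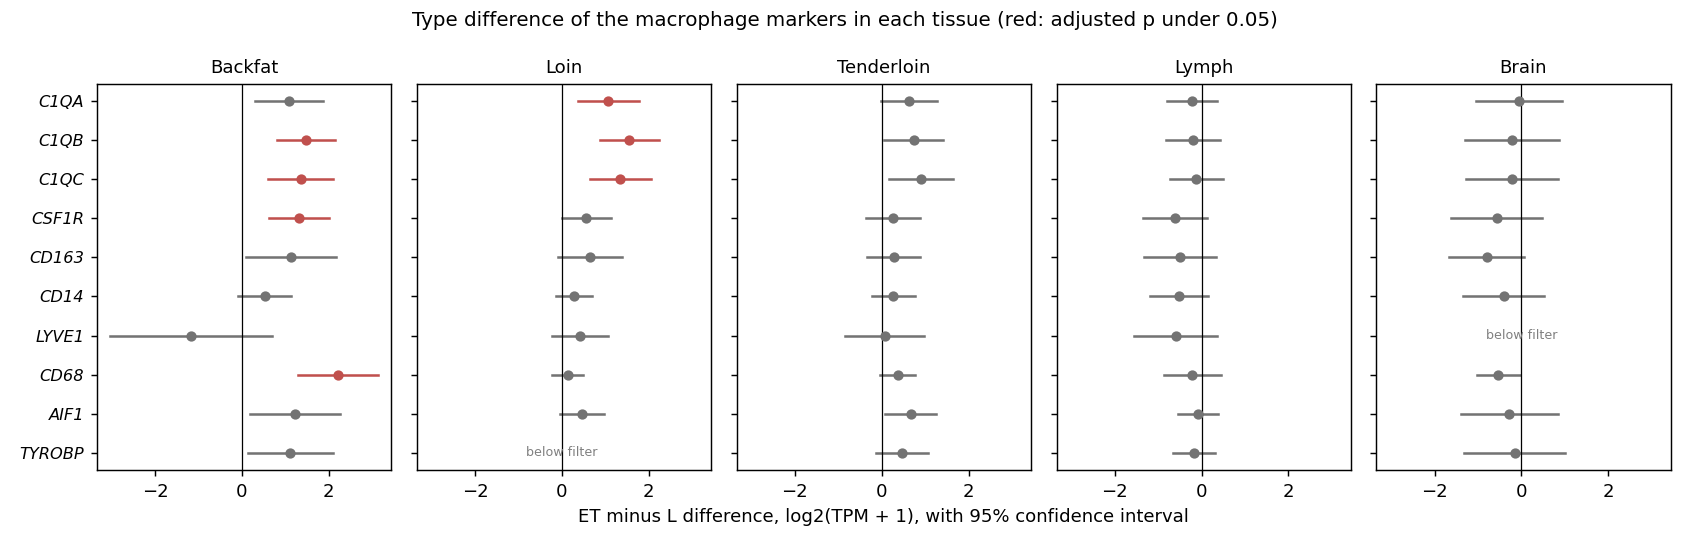
ET minus L difference of each marker on the log2(TPM + 1) scale (points) with 95% confidence intervals (lines), by tissue, with red for an adjusted p under 0.05. Calls are seen in backfat (CD68, C1QB, C1QC and CSF1R) and loin (the C1q chains), and intervals in lymph and brain lie around or below 0. The brain libraries hold pituitary RNA.

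Whether the type difference depended on tissue was tested directly, with limma's F test of the interaction over the 45 libraries. It passed for 4 members, where 21.7% of all entries passed: CD68 (F = 12.8, adjusted p = 5.27e-05), C1QB (F = 5.17, adjusted p = 0.0141), CSF1R (F = 4.66, adjusted p = 0.0221) and C1QC (F = 3.76, adjusted p = 0.0498). CD68 differed by 2.21 in backfat, by 0.13 in loin, by 0.37 in tenderloin, by -0.21 in lymph and by -0.53 in brain. The F test takes 1 spread per entry for all tissues. In the separate fits the SE for CD68 was 0.42 in backfat and 0.16 in loin, and the p-values of the F test do not allow for such inequality. C1QB differed by 1.47 in backfat, 1.56 in loin, 0.73 in tenderloin, -0.20 in lymph and -0.23 in brain. For CSF1R these were 1.31, 0.57, 0.26, -0.62 and -0.56, and for C1QC 1.35, 1.34, 0.90, -0.12 and -0.22. With the animal as a replicate block 3 members passed, and C1QC did not (F = 3.14, adjusted p = 0.0793). CD68 kept its call when any single animal was left out. Without S0309 or S0377 it was the 1 member that passed, and without S0384, or after median-ratio scaling, CD68 and C1QB passed. C1QA (F = 2.71, adjusted p = 0.127) and LYVE1 (F = 1.16, adjusted p = 0.499) did not pass.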

How the data were processed

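RNA was measured in 5 tissues of 10 minipigs. Total RNA was extracted with TRIzol and sequenced from stranded mRNA libraries, per the labels' protocols. Trimmomatic 0.36 and Salmon 1.10.0 and the genome build Sscrofa11.1 are named in the submitters' processing notes. The deposited values are TPM per transcript of an assembly, calculated by the authors, and each library sums to the same total, so read depth is not recoverable and values give no counting interval. Of 57085 transcripts, 20601 had no Swiss-Prot hit, 1864 had one above the E value limit of 1e-10, and 2465 had a repeat or non-animal hit. The other 32155 were summed to 14413 entries, and the transcripts came from 20 assemblies. Replicates were separate animals.

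TPM was put on the log2 scale after 1 was added. Entries averaging at least 1 TPM were then fitted in limma 3.58.1 (R 4.3.3), whose prior variance followed mean expression. Tests were two-sided, with Benjamini-Hochberg adjustment over all entries tested and calls at an adjusted p under 0.05. ET was set against L within a tissue, and tissues and the interaction were fitted over 45 libraries, with 1 spread per entry for all tissues. The members and gene lists were chosen with earlier results of these data known. Genes of a list were named where they passed, at most 4 in order of p. For each member the 3 other entries with the highest correlation, among those averaging at least 5 TPM, were taken as most alike, and 1 of these results is not reported here.

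Animal numbers come from the labels, and a number marks 1 animal in all tissues. Deviations from the group means of libraries of the same animal had a median correlation of 0.152 (84 pairs, -0.119 to 0.611), against -0.0512 for different animals of 1 type (320 pairs). The fit with the animal as a replicate block is an alternative for the tissue and interaction results. Other alternatives were a pseudocount of 0.1, other filters, median-ratio scaling, no trend, all 50 libraries, 1 transcript per entry, an E value of at most 1e-50, and each animal left out. The fit was tested on simulated data.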

Additional observations from a re-analysis of the deposited data

Results flagged for a closer look

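Single libraries stood apart from their group in 4 of 100 groups of 4 or 5 libraries checked, and chance flags about 1 in 20 groups. CD163 reached 137 TPM in the backfat of ET animal S0309, with the next ET animal at 56.2 TPM, and 60.4 TPM in the backfat of L animal S0377, with the next L animal at 22.9 TPM. C1QC stood at 7.0 TPM in the loin of ET animal S0276, below the next ET animal at 19.9 TPM. AIF1 stood at 1.09 TPM in the loin of L animal S0384, above the other L animals, which reached 0.688 TPM.

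The difference between ET and L depended on the tissue in limma's interaction test for 4 members, with F values of 12.8 for CD68, 5.17 for C1QB, 4.66 for CSF1R and 3.76 for C1QC. The differences were positive in backfat, loin and tenderloin and negative in lymph and brain for all 4. None of the 4 passed in lymph or brain. Without single animals the differences of C1QC and CD68 in lymph and of C1QB and C1QC in brain turned positive.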

How the results depend on the processing

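Counts of members called moved under a few settings. Median-ratio scaling gave 2 for ET against L in backfat, 4 for brain against loin, 2 for brain against tenderloin, 5 for loin against tenderloin and 2 for the interaction. All 50 libraries, off-tissue ones included, gave 1 in backfat, 0 in loin, 4 for backfat against brain, 0 for loin against tenderloin and 1 for the interaction. A pseudocount of 0.1 gave 5 for loin against tenderloin, and 1 transcript per entry gave 2 for the interaction. With the animal as a replicate block, the pairing gave 5 for loin against tenderloin, 9 for brain against loin (LYVE1 lost) and 3 for the interaction (C1QC lost), and changed no other call. Leaving out 1 animal gave 1 to 5 in backfat (1 without S0384, 5 without S0242), 2 to 4 for loin against tenderloin (4 without S0385) and 1 to 5 for the interaction (1 without S0309 or S0377).

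Directions turned for members that had not passed, except where brain was set against muscle. With all 50 libraries the loin differences were -0.18 (AIF1), -0.41 (CD14), -0.16 (CD68) and -0.26 (LYVE1), CD163 was -0.16 in brain against tenderloin, and CD68 was 0.028 in loin against tenderloin. Scaling gave -0.0014 for LYVE1 in tenderloin, 0.014 for AIF1 in lymph, 0.13 for C1QA in brain and -0.17 for CD163 in brain against loin. In brain against tenderloin it gave -1.03 (CD163), -0.40 (CD14), -0.056 (CD68) and -0.29 (CSF1R). Without single animals LYVE1 in tenderloin ran from -0.20 to 0.33. In lymph AIF1 ran from -0.25 to 0.064, C1QC from -0.28 to 0.090 and CD68 from -0.39 to 0.041. In brain AIF1 ran from -0.55 to 0.17, C1QA from -0.31 to 0.36, C1QB from -0.49 to 0.21, C1QC from -0.50 to 0.24 and TYROBP from -0.43 to 0.29, with the highest values without S0384. The causes were not tested.

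Of the values for single members, 2736 kept direction and side of the threshold, 79 lost a call, 20 gained one and 32 turned. Groups of 4 or 5 animals and unknown read depth limit the low levels in muscle.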

Other observations

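The 5 libraries whose marker genes go against their label had these levels. The brain libraries of ET animal S0235 and L animal S0355 had MBP at 30538 and 37999 TPM and POMC at 6.92 and 7.75 TPM. In them CSF1R stood at 101 and 271 TPM, above the 8.07 to 54.5 TPM of the other brain libraries. C1QB stood at 343 and 605 TPM and AIF1 at 97.1 and 109 TPM, while CD163 stood at 0.421 and 2.16 TPM, below the 4.94 to 25.3 TPM of the others. LYVE1 was at 0.129 and 0.858 TPM.

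The library of S0355 labelled loin had ADIPOQ at 1139 TPM, CKM at 0.638 TPM, LYVE1 at 23.4 TPM and CD14 at 25.9 TPM. The library of S0355 labelled backfat had CKM at 23749 TPM, ADIPOQ at 3.33 TPM, C1QB at 15.5 TPM and CSF1R at 5.05 TPM. The library of S0235 labelled lymph had UMOD, the urinary protein uromodulin, at 2156 TPM, CD3E at 3.13 TPM, C1QB at 68.2 TPM and LYVE1 at 0.608 TPM.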
